A study of Isoetes sinensis with 3 samples.

Results

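The genes described here are the protein-coding genes of the quillwort *Isoetes sinensis* whose coding sequence (CDS) is interrupted by exactly 1 intron. They were selected on the number of CDS segments in the deposited annotation: a gene on chromosomes 1 to 22 entered when its mRNA had exactly 2 CDS segments. This gave 10350 genes out of 54063 placed on the 22 pseudochromosomes and 57303 in all. The number of segments is what chose them, so it is a description and not a finding. Just outside the limit lay 12559 placed genes with 1 CDS segment, whose coding sequence is uninterrupted, and 7059 with 3 segments. Genes with 3 or more segments numbered 31154 and carried 185909 coding introns.

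*I. sinensis* is a tetraploid lycophyte, and the study assembled its genome into pseudochromosomes and annotated it with the help of RNA. The labels name 3 tissues, root, shoot and sporophyte, with 1 library each and no treatment. The methods give a harvest site in Zhejiang Province for the shoot material of the genome sequencing, and none for the RNA. The annotation belongs to no single tissue, and it holds no expression value, so the tissues enter no comparison. The 22 pseudochromosomes form 11 pairs of neighbouring number (1 with 2 through 21 with 22) by shared gene structures, and every SD and every test below is taken over these 11 pairs unless another n is given.

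The phase of an intron says where it falls in the reading frame. A phase 0 intron lies between codons, a phase 1 intron after the first base of a codon and a phase 2 intron after its second base. Introns of the same phase on both sides of an exon let that exon be skipped or duplicated without a frame shift, and phase 0 is the most frequent phase in most plant and animal genomes. In a gene with a single coding intron the phase follows from the length of the first CDS segment alone. The annotation gives identifiers and positions but no gene symbols, so the genes named below are given with their structure and without a function.

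Of the single-intron genes, 4454 (43.0%, SD 2.15) had a phase 0 intron, 3595 (34.7%, SD 1.94) a phase 1 intron and 2301 (22.2%, SD 1.46) a phase 2 intron. Phase 0 was the most frequent in every chromosome pair, between 40.8% and 47.5%. Phase 1 ran between 30.7% and 37.4%, and phase 2 between 20.3% and 24.4%, so the ranges of the 3 phases did not overlap.

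The single-intron genes had fewer phase 0 and more phase 1 introns than genes with 3 or more CDS segments. Phase 0 took 43.0% of the single introns, against 55.7% (SD 0.991) of all coding introns in the genes with more. The mean difference was -12.7 percentage points (SD 1.85), lower in 11 of 11 pairs (two-sided exact sign-flip permutation test, p = 0.000977, the smallest that 11 pairs can give, adjusted p = 0.00146 over 15 tests by Benjamini-Hochberg). Phase 1 took 34.7% against 21.9% (SD 0.567), a mean difference of 12.9 points (SD 1.91), higher in 11 of 11 pairs with the same exact p and adjusted p. For neither phase did the ranges over chromosome pairs overlap between the gene classes: phase 1 lay between 30.7% and 37.4% in single-intron genes and between 21.2% and 22.9% in the others. Phase 2 differed by -0.14 points (SD 1.43), less than the spread between pairs, with 22.2% in single-intron genes and 22.3% in the others (exact permutation p = 0.738, adjusted p = 0.738).

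Part of that contrast depends on which introns of the longer genes were compared. Their first coding introns had phases 0, 1 and 2 in 48.3%, 29.7% and 21.98%, nearer to the single introns, and their last coding introns in 54.3%, 23.3% and 22.4%. Against first introns only, a comparison chosen after seeing the data, the single introns differed by -5.23 points in phase 0 (SD 1.89) and 5.06 points in phase 1 (SD 2.23), with exact permutation adjusted p = 0.00163 for both. Against genes with exactly 3 CDS segments the differences were -4.41 points (SD 2.86, adjusted p = 0.00293) and 5.55 points (SD 2.21, adjusted p = 0.00183). Both directions held in both comparisons, with smaller differences than against all introns. The first introns ran between 45.7% and 50.3% over pairs in phase 0 and between 28.3% and 31.7% in phase 1. Both ranges overlapped those of the single introns. Over all alternatives that kept every pair, the adjusted p of the sign-flip permutation tests ran between 1.5e-05 and 0.00293 for phase 0. For phase 1 it ran between 1.5e-05 and 0.00215. The value 1.5e-05 came from the setting with the 22 pseudochromosomes as units and 100000 resampled sign flips. That setting counts the chromosomes of a pair as independent, so it is no stronger evidence than the 11 pairs give. Over classes of rising segment number the phase 0 share was 43.0% with 2 segments, 47.4% with 3, 49.5% with 4, 50.4% with 5 and 57.9% with 6 or more, and the phase 1 share 34.7%, 29.3%, 27.7%, 27.0% and 19.99% in the same order. The single-intron genes stood at the end of both series.

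**Figure D1:**
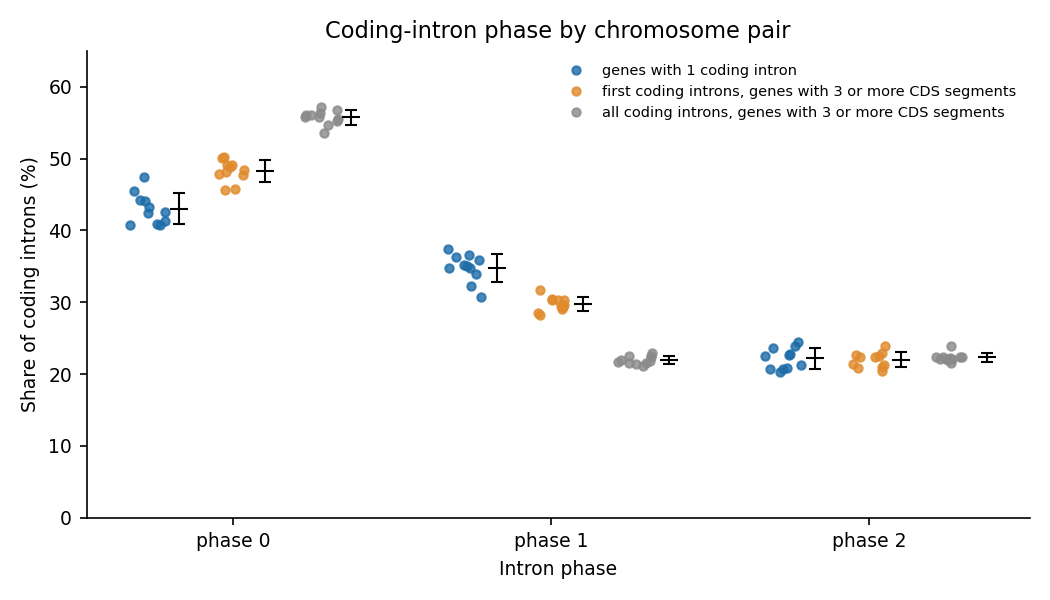
Share of coding introns in each phase (y axis, %), 1 point per chromosome pair (n = 11), for genes with 1 coding intron, for the first coding introns and for all coding introns of genes with 3 or more CDS segments. Black marks are the mean and SD over the pairs. By their means, the single introns lie lowest in phase 0 and highest in phase 1. The first introns of longer genes lie between them and all introns, with ranges that overlap those of the single introns. The 3 sets share 1 range in phase 2.

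The single intron sat more often before the midpoint of the CDS than after it. Its relative position, the first CDS segment as a share of the whole CDS, had a median of 43.4% and quartiles of 21.9% and 68.4%. The midpoint was preceded by 5869 introns, or 56.7% (SD 1.97, range over pairs 54.4% to 59.7%). This exceeded 50% by 6.66 points on average, in 11 of 11 pairs (exact sign-flip permutation p = 0.000977, adjusted p = 0.00146). The excess was spread over a broad 5′ stretch: with the CDS divided into 10 bins of equal length, numbered from its start, each of bins 1 to 4 held between 11.2% and 12.2% of the introns, and each of bins 7 to 10 between 7.59% and 8.91%. Bin 4 held most, 1258 introns.

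The phases were most evenly represented near the start of the CDS. In bin 1, phases 0, 1 and 2 took 35.8% (SD 4.09), 34.2% (SD 4.72) and 30.01% (SD 4.41) of 1173 introns. The phase 2 share in the other bins lay between 17.8% and 25.5%. In bin 4, phases 0 and 1 were equally frequent at 41.1% each (SD 6.23 and 6.61), and phase 2 was at its lowest. Phase 0 was highest in bin 8, at 46.7% (SD 6.84). The spread between pairs within 1 bin was 3.07 to 9.22 points, so the order of most neighbouring bins cannot be read, and these shares were not tested.

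**Figure D2:**
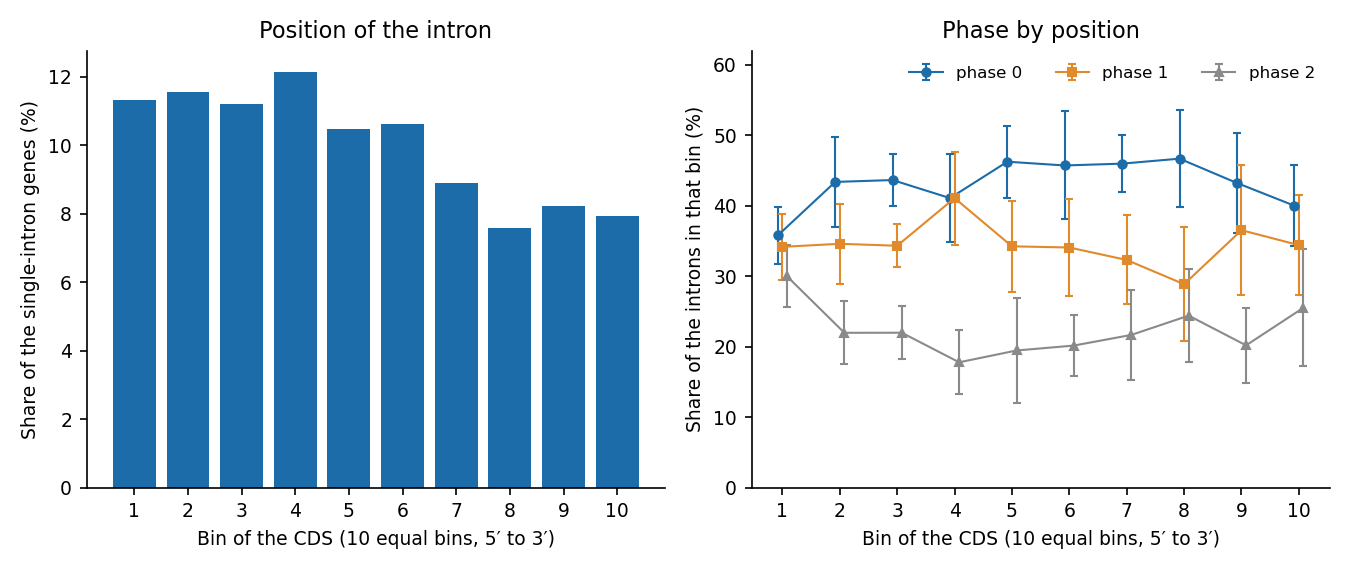
Left, share of the 10350 single-intron genes (y axis, %) by the bin of the CDS in which the intron falls (10 equal bins, x axis). Right, phase shares within each bin (y axis, %), points over all genes of the bin and bars the SD over 11 chromosome pairs. Introns are more frequent in bins 1 to 4 than in bins 7 to 10, and phase 2 reaches 30.01% in bin 1.

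The single coding introns were longer than those of genes with 3 or more segments. Their median was 197 bp with quartiles of 87.2 and 546 bp, against a median of 100 bp in these genes. The medians of the pairs lay between 159 and 211.5 bp in single-intron genes and between 96.0 and 105 bp in the others, without overlap. The mean difference was 95.2 bp (SD 16.4), higher in 11 of 11 pairs (exact permutation p = 0.000977, adjusted p = 0.00146). Introns over 1 kb made up 14.4% (SD 0.942) of single introns and 6.25% (SD 0.298) of the others, a difference of 8.13 points (SD 1.099) in 11 of 11 pairs with the same adjusted p. The short class was thinner: 33.7% of single introns measured 60 bp to under 120 bp, against 54.5% in the others. Against genes with exactly 3 segments the differences were smaller, 31.8 bp (SD 19.6, medians of 197 and 163 bp, exact permutation adjusted p = 0.00293) and 3.93 points over 1 kb (SD 0.819, 14.4% and 10.4%, adjusted p = 0.00183). First coding introns of the longer genes had a median of 158 bp, and the difference to these was 38.2 bp (SD 15.8, exact permutation adjusted p = 0.00293). Here the ranges over pairs overlapped, with first introns between 148.5 and 167 bp. On chromosomes 7 and 8 both medians were 159 bp. Over the other alternatives the adjusted p of the sign-flip permutation test of median length ran between 1.5e-05 and 0.00293. The lowest value again came from the 22 pseudochromosomes as units with resampled sign flips, which counts the chromosomes of a pair as independent.

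At the extremes, 41 single introns measured under 30 bp and 61 over 20 kb. The shortest, 22 bp, lay in evm.TU.Chr6.2192 (chromosome 6, 43511579 to 43513400), whose CDS of 1800 bp is split 931 to 869 bp in phase 1. The longest, 288117 bp, lay in evm.TU.Chr9.4364 (chromosome 9, 81456250 to 81745426), with a CDS of 918 bp split 732 to 186 bp in phase 0, and 5 other whole genes lay inside that intron. Such nesting was found in 5 single-intron genes, whose introns of at least 68934 bp together enclosed 21 genes. Identifiers that join a pair of gene identifiers belonged to 2 of the 5. All 5 models name no source, as did 8 of the 9 models with a single intron at least that long, while 41 of the 61 with an intron over 20 kb name a source. The intron was longer than the CDS it interrupts in 2600 genes (25.1%, SD 0.867).

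Long introns stood nearer to the 3′ end. Introns over 1 kb made up 23.6% of those in each of bins 9 and 10 of the CDS, against 8.59% in bin 4, which was not tested. From 1 to 5 kb, 44.0% of introns preceded the midpoint, and over 5 kb 41.9%, while among the shorter classes the share was 54.1% to 61.6%. Across the 10350 genes the rank correlation of intron length with position was nevertheless weak (Spearman rho 0.07), as were those of intron length with CDS length (-0.04) and of the lengths of the first and second CDS segments (-0.10). These are descriptions across genes that share chromosomes and gene families.

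Single introns with a length divisible by 3 would, if retained, not shift the frame, and they numbered 3508 (33.9%, SD 1.63), against 33.1% in genes with more segments. The difference was 0.79 points (SD 1.87), within the spread between pairs (exact permutation p = 0.199, adjusted p = 0.249). The share varied with length. It was 30.5% (SD 2.86) up to 100 bp, 33.0% (SD 3.56) from 100 to 300 bp, 38.8% (SD 2.999) from 300 bp to 1 kb and 34.7% (SD 3.14) above that. The corresponding shares in genes with 3 or more segments were 32.2%, 34.0%, 34.3% and 33.5%. For introns of 300 bp to 1 kb the pairs lay between 34.7% and 43.9% in single-intron genes and between 33.3% and 35.6% in the others. These classes were formed after seeing the data and were not tested.

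**Figure D3:**
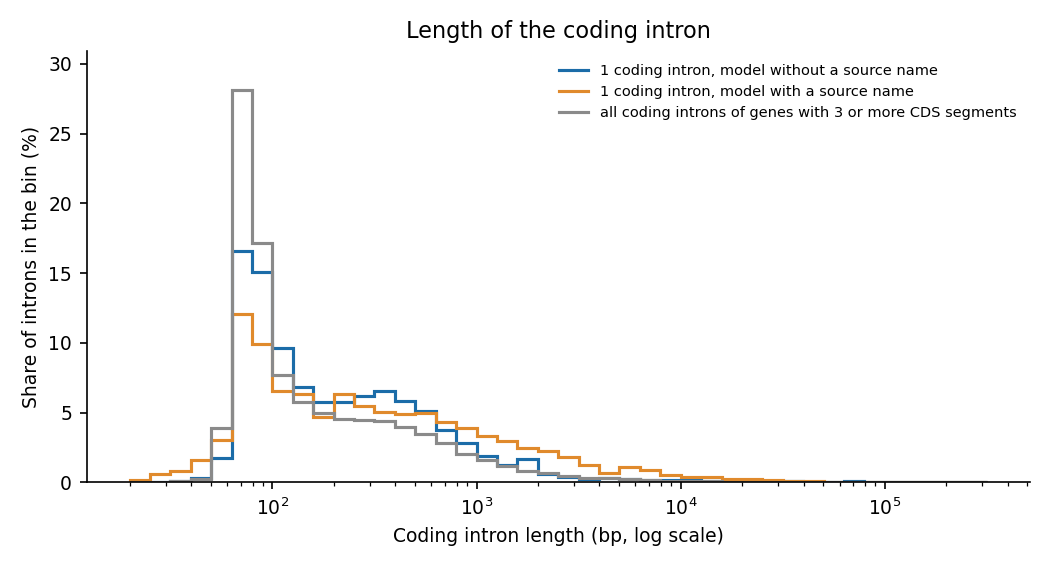
Share of coding introns (y axis, %) by length (x axis, bp, log scale), for single-intron genes whose model names no source or names 1, and for all coding introns of genes with 3 or more CDS segments. All 3 curves peak between 60 and 100 bp, and the single introns have the lower peak and the heavier tail, most of all in models that name a source.

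The coding sequences of the single-intron genes were short. The CDS had a median of 585 bp with quartiles of 369 and 1056 bp, and the medians of the pairs ran between 552 and 639 bp. This was the lowest median of the classes: 645 bp with 1 CDS segment, 648 bp with 3, 732 bp with 4, 846 bp with 5 and 1392 bp with 6 or more. No test was made, since the classes differ in the number of segments that chose them. The first CDS segment had a median of 217 bp and the second 288 bp. The longest CDS, 20217 bp in evm.TU.Chr16.4518 (chromosome 16, 83162450 to 83185131), was split 14388 to 5829 bp by a phase 0 intron of 2232 bp. The longest first segment, 14659 bp of a CDS of 15999 bp, belonged to evm.TU.Chr15.4750 (chromosome 15, 87226058 to 87242116), which has an intron of 60 bp. The longest second segment, 11433 bp, belonged to evm.TU.Chr7.3268 (chromosome 7, 61488756 to 61502113), whose first segment measures 78 bp.

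The most frequent length of the first CDS segment was 3 bp, the length of a start codon, in 59 genes. Of these, 15 had a model that names no source and 13 an annotated 5′ UTR, and their CDS median was 372 bp. The next most frequent was 166 bp, in 50 genes, of which 17 belong to a pair of like structures described below. Whole codons made up the CDS (a length divisible by 3) in 97.5% of single-intron genes (SD 0.671). In 155 genes the phase computed from the first segment differed from the one in the phase column, and in all 155 that column also said that the first segment does not start on a codon.

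Gene models in this annotation either carry no source name or name Evidence Modeler, and single-intron genes more often carried the name than genes with 1 or with more CDS segments. Models without a source name made up 41.6% (SD 2.97) of the single-intron genes, against 61.0% of genes with 3 or more segments and 53.9% of genes with 1. The differences were -19.3 points (SD 2.43) and -12.3 points (SD 3.05), lower in 11 of 11 pairs each (exact permutation p = 0.000977, adjusted p = 0.00146). UTRs, which occur only in models without a source name, were annotated in 39.0% (SD 2.88) of the single-intron genes, against 58.8% and 50.6%, with the same adjusted p. Against genes with exactly 3 segments the gap was smaller: 41.6% against 45.8% without a source name, a difference of -4.16 points (SD 2.16), and 39.0% against 43.2% with a UTR, a difference of -4.13 points (SD 2.24), both with exact permutation adjusted p = 0.00183. Models without a source name made up 73.5% of genes with 6 or more segments. These 2 features overlap almost wholly and are not separate results. Both UTRs were present in 3097 single-intron genes, the 3′ UTR alone in 594 and the 5′ UTR alone in 350. With UTRs counted, 9371 genes (90.5%) had exactly 2 exons, so the coding intron was their only one, and 979 had more, up to 13.

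The kind of model moved with intron length. Single introns had a median of 155 bp in models without and 233 bp in models with a source name, a mean difference of -75.0 bp (SD 25.3), lower in 11 of 11 pairs (exact permutation p = 0.000977, adjusted p = 0.00146). Introns over 1 kb made up 7.76% and 19.1% in the same order, and the CDS median was 886.5 and 480 bp. Among the 218 introns of at most 50 bp, 10.1% lay in models without a source name, and among the 320 over 5 kb 18.8%. Phase and position moved less. Phase 0 took 42.0% of single introns in models without and 43.8% in models with a source name, a difference of -1.83 points (SD 3.49) that did not pass the test (exact permutation adjusted p = 0.145), although it did under 3 other settings with -2.30 to -2.47 points and, without chromosomes 15 and 16, with -2.43 points (adjusted p = 0.0240). Its adjusted p ran between 0.0266 and 0.150 over the other settings and between 0.0240 and 0.264 when 1 pair was left out. Introns before the midpoint made up 57.2% and 56.3% (exact permutation adjusted p = 0.394), and lengths divisible by 3 34.8% and 33.3% (adjusted p = 0.277). Which models rest on transcripts is not stated by the source field. The length contrast with longer genes was also taken within each kind of model. The single introns were longer by 65.05 bp (SD 15.3) within models without and by 104.5 bp (SD 21.8) within models with a source name. These differences were -39.5 bp (SD 26.1) apart (exact sign-flip permutation adjusted p = 0.0044 over 6 tests).

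The tetraploid genome allowed the intron to be compared between genes of equal structure, among them possible copies. A structure was the ordered pair of CDS segment lengths, and it was unique to 1 gene for 7210 of the single-intron genes (69.7%). Structures shared by exactly 2 genes gave 1319 matches. Of these, 943 (71.5%) lay on the chromosomes of a pair, 92 on 1 chromosome and 284 on chromosomes of different pairs. With a CDS of at least 600 bp the share on paired chromosomes was 89.1% of 746 matches, and the matches on unpaired chromosomes had a median CDS of 357 bp, against 966 bp on paired ones. Short structures can be equal without common descent, so a match was not taken as proof of a copy.

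In 482 of the 943 matches on paired chromosomes (51.1%, SD 8.30, range over pairs 38.3% to 64.6%) both genes carried an intron of identical length, and in 73.0% it was equal within 5 bp. Where the lengths differed, the median difference was 7 bp. Exact equality was found in 73.9% of the matches within a chromosome and in 18.7% of those on unpaired chromosomes. Above 60 bp, longer introns were less often of equal length, while in the class up to 60 bp only 4 of 8 matches were equal. Equality held for 74.1% of 294 matches whose shorter intron measured over 60 to 100 bp, 59.4% of 217 from there to 200 bp, 36.6% of 262 to 500 bp, 25.6% of 117 to 1 kb and 11.1% of 45 above. The matched pair with the longest CDS, evm.TU.Chr7.3045 (chromosome 7, 57358721 to 57365500) and evm.TU.Chr8.2726 (chromosome 8, 51196529 to 51203289), had CDS segments of 5715 and 144 bp and an intron of 69 bp in both genes. The largest difference was between evm.TU.Chr11.569 (chromosome 11, 10322525 to 10323105), with an intron of 245 bp, and evm.TU.Chr12.564 (chromosome 12, 9280667 to 9295005), with 14003 bp, both in phase 1 of a CDS of 336 bp.

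**Figure D4:**
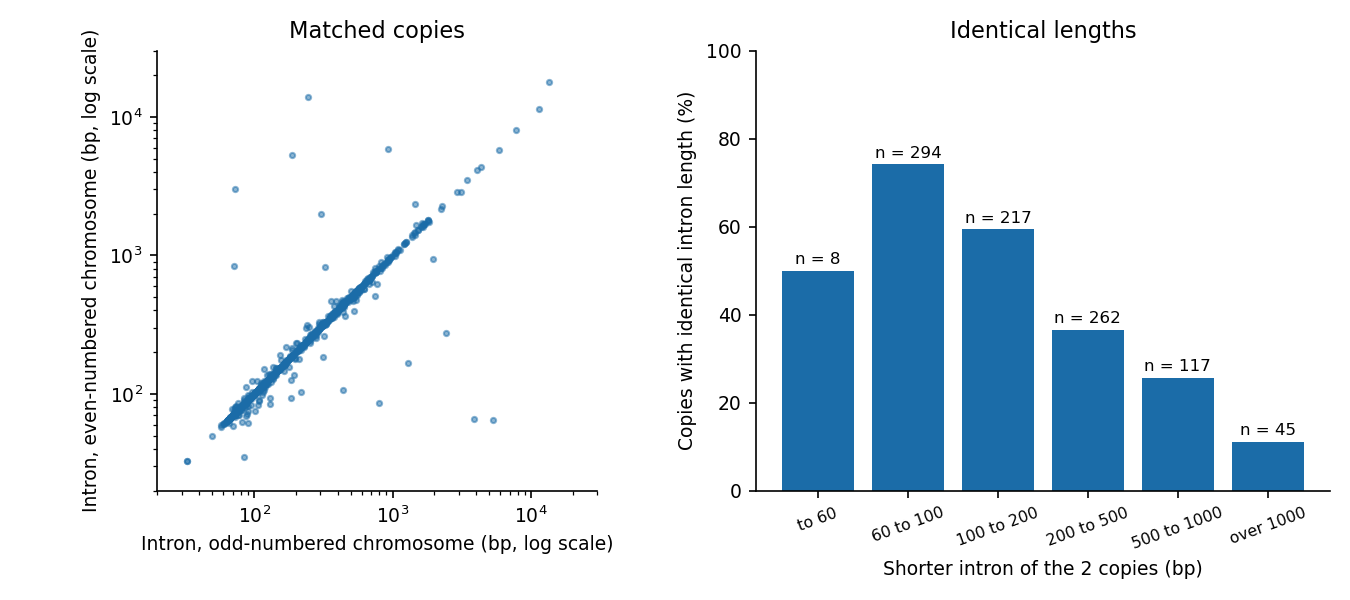
Left, length of the single coding intron on the odd-numbered (x axis) and the even-numbered chromosome (y axis), both in bp on log scales, 1 point for each of 943 structure matches on paired chromosomes. Right, share of these matches with identical intron length (y axis, %) by the length of the shorter intron. Most points lie on or beside the diagonal, and identical lengths make up 11.1% above 1 kb.

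The 1886 genes of these matches differed from the other 8464 single-intron genes in more than the structure that chose them. Their CDS median was 966 bp, against 534 bp, and 85.5% of their models carried no source name, against 31.8%. Introns over 1 kb made up 5.36%, against 16.4%. Phases 0, 1 and 2 took 45.1% (SD 4.74), 34.4% (SD 2.71) and 20.6% (SD 3.41) in the matched genes, and 42.6% (SD 2.05), 34.8% (SD 2.02) and 22.6% (SD 1.35) in the others, differences within 1 SD of the matched genes. These are descriptions without a test, since an equal CDS in both genes is needed for a match.

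Some single-intron genes had an uninterrupted gene of matching length at the collinear place of the partner chromosome. For 9849 single-intron genes a collinear window was found on the partner chromosome, between matched genes with at least 5 CDS segments, with a median of 37 genes, and every gene in it with an uninterrupted CDS was compared, 98817 combinations in all. In 102 combinations, with 100 single-intron genes, the uninterrupted CDS was exactly as long as the CDS plus the intron of the single-intron gene. At other offsets in steps of 3 bp, up to 30 bp either way, the count was 36 to 57. For single-intron genes with a CDS of at least 600 bp it was 55 (53 genes), against 4 to 16 at the other offsets. When the CDS alone was compared, as it would be for a copy without the intron sequence, the count was 66, within the 38 to 75 at the other offsets. Over single-intron genes of any CDS length it was 252, against 189 to 250. Equal lengths thus stood above the other offsets by more when the intron was counted as coding in the partner than when it was left out. These counts were not tested.

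The 55 combinations had introns of 36 to 1914 bp with a median of 294 bp, all divisible by 3, as equal length to a CDS in frame requires. Phases 0, 1 and 2 were found in 11, 30 and 14 of them. In 69.1% of the combinations the single-intron gene, and in 72.7% the uninterrupted partner, had a model without a source name. The longest, chosen after its values were seen, was evm.TU.Chr18.3675 on chromosome 18, with a CDS of 3081 bp and a phase 1 intron of 582 bp, beside evm.TU.Chr17.3462 on chromosome 17, with an uninterrupted CDS of 3663 bp. Lengths can also be equal without common descent, and each of the other offsets had 4 to 16 combinations. The 55 were therefore not taken as proof of copies. Where they are copies, a difference in splicing cannot be told apart, from positions, from the same sequence annotated in both ways.

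**Figure D5:**
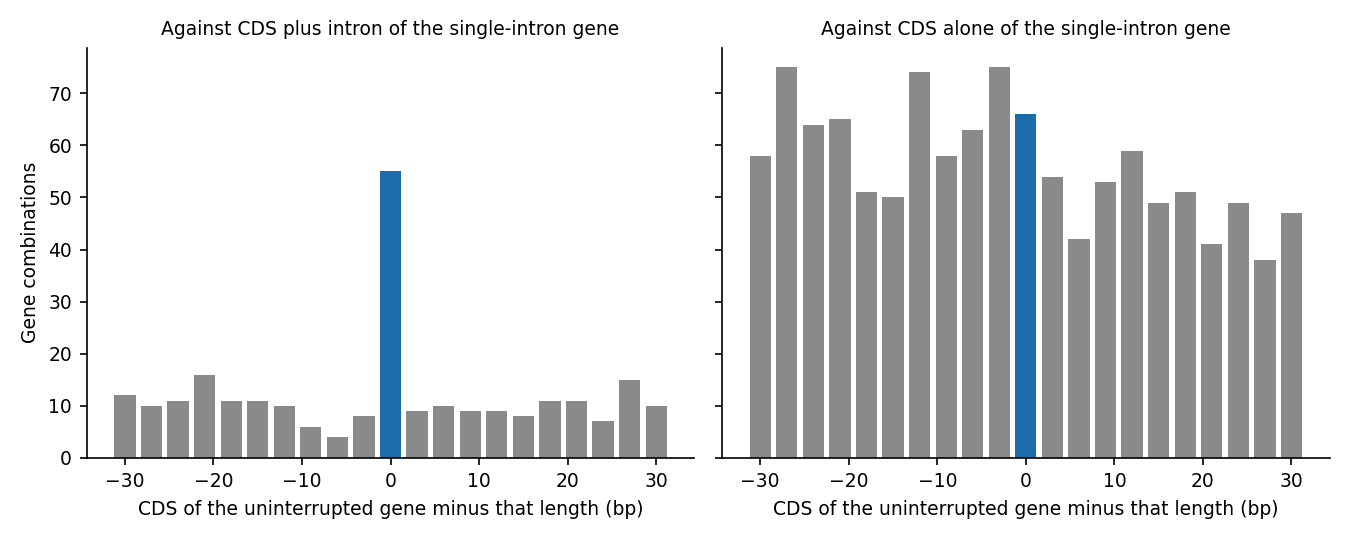
Combinations of a single-intron gene with a CDS of at least 600 bp and an uninterrupted gene at the collinear place of the partner chromosome (y axis, count), by the CDS of the uninterrupted gene minus the CDS plus intron (left) or minus the CDS alone (right) of the single-intron gene (x axis, bp, steps of 3). Blue marks equal length. The left panel has 55 at 0 and 4 to 16 elsewhere, and the right panel 66 at 0 and 38 to 75 elsewhere.

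The largest group with 1 structure was 12 genes with CDS segments of 166 and 995 bp, a CDS of 1161 bp and a phase 1 intron of 79 to 123 bp. All but 1 had a model without a source name. They lay on chromosome 5 (5 genes), chromosome 6 (4 genes) and chromosomes 7, 8 and 22 (1 each). The 5 on chromosome 5 fell within 8 consecutive genes between 86562795 and 87140953, from evm.TU.Chr5.4588 on, on alternating strands, with introns of 122, 87, 80, 80 and 80 bp in that order. The genes on chromosomes 7 and 8 both had an intron of 79 bp, and evm.TU.Chr22.3085 (chromosome 22, 59667053 to 59668306) had 93 bp. A further 5 genes on chromosomes 3, 9, 10 and 11 had the same first segment and a second of 992 bp, 1 codon shorter, with introns of 86 to 189 bp.

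Other shared structures gave contrasting pictures. In some, intron length followed the chromosome pair. The 6 genes with segments of 365 and 439 bp and a phase 2 intron had introns of 79 bp on chromosomes 1 and 2, 122 bp on chromosomes 7 and 8 and 98 bp on chromosomes 15 and 16, equal within each pair and different between pairs. In others the intron was identical across pairs. The 5 genes with segments of 625 and 584 bp on chromosomes 3, 5, 7, 16 and 21 all had an intron of 309 bp, and the 5 with 157 and 236 bp on chromosomes 6, 8, 10 (2 genes) and 22 all had 111 bp. All 10 of these genes had models that name a source, against 1 of the 12 in the largest group. Some structures followed neither picture. The 6 genes with segments of 876 and 609 bp had an intron of 293 bp on chromosome 3 and of 81 bp in both genes on chromosome 4. The 8 genes with segments of 177 and 231 bp had introns of 77 to 124 bp. The largest group was picked by size, and the other structures were picked after their values were seen. Sequences of these genes were not analysed here.

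Single-intron genes made up a similar share of every chromosome pair. It was 19.1% of the placed genes (SD 0.843), between 17.9% and 20.5% over the chromosome pairs, and 24.9% (SD 1.36) of the genes with any coding intron. On the plus strand lay 50.2%. Most stood alone, in 6544 runs of 1, and neighbouring single-intron genes formed 1293 runs of 2, 273 of 3, 69 of 4, 14 of 5 and 8 of 6. Whether such runs are more frequent than a share of 19.1% alone would give was not tested. The longest run, 7 genes on chromosome 2 between 29796052 and 30347085, held 7 different structures.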

How the data were processed

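The study sequenced RNA of root, shoot and sporophyte (1 library per label; the methods name sporangia for the third) to help annotate the *I. sinensis* assembly. The authors deposited the gene annotation, whose values are start and end positions in bp, counted from 1, and a phase column with a score of 0, 1 or 2 per CDS row. By the methods, Evidence Modeler joined ab initio, protein-based and transcript-based models, so segment limits carry the errors of those predictions. Versions of these prediction tools and the evidence behind each model are not stated in the sources read here. Read depth was not analysed here, so precision rests on the number of genes and the spread over chromosome pairs, which measures no sequencing error. FastQC, HISAT2 and Cufflinks are named, without a role, in the processing notes of the submitters.

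Each gene had 1 mRNA. A coding intron is the gap between neighbouring CDS segments, its phase is the CDS length before it modulo 3, and its position is that length divided by the CDS. Chromosome pairs came from genes with at least 5 CDS segments whose list of internal segment lengths was shared by exactly 2 genes. Differences were tested over the 11 pairs by a two-sided exact permutation test that flips signs, with Benjamini-Hochberg adjustment over 15 tests and a threshold of 0.05. Pooled shares are printed, and differences are means over pairs. Genes of a pair include copies, and the pairs are no independent samples of a condition, so a p says only how evenly a difference ran through the genome. Members and lists were chosen with earlier results of these data known. Named genes are the extremes of CDS, segment and intron length, the first and last gene of the largest shared structure, and the matched pairs with the longest CDS and the largest intron difference. The code was tested on simulated data. Alternatives changed the gene models, the introns compared, the unit and the matching rule. Genome sequence was not analysed here, so no splice site was read. Python 3.11.15, NumPy 2.4.6, pandas 2.3.3 and Matplotlib 3.10.9 were used.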

Additional observations from a re-analysis of the deposited data

Results flagged for a closer look

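The contrast of single-intron genes with genes of 3 or more CDS segments was not the same in both kinds of gene model. The phase 0 difference was -15.5 points (SD 3.46) within models without a source name and -7.78 points (SD 1.504) within models with one, -7.69 points (SD 3.35) apart, lower in 11 of 11 chromosome pairs (exact sign-flip permutation p = 0.000977, adjusted p = 0.00195 over 6 tests). The phase 1 difference was 15.7 points (SD 3.37) and 8.57 points (SD 1.90) in the same order, 7.15 points (SD 3.40) apart in 11 of 11 pairs, with the same adjusted p. In that order, phase 0 took 42.0% and 43.8% of the single introns and 57.4% and 51.6% of the comparison introns. That gap lay mostly in the comparison genes. For phase 1 the shares were 36.3% and 33.6%, and 20.7% and 25.1%. The comparison genes held 132486 introns in 19011 genes without and 53423 in 12143 genes with a source name. They were not matched for segment number, and its part was not tested. The difference in median intron length was 65.05 bp (SD 15.3) and 104.5 bp (SD 21.8), -39.5 bp (SD 26.1) apart and lower in 10 of 11 pairs (exact permutation p = 0.00293, adjusted p = 0.0044). Here the medians moved in both gene classes, 155 and 233 bp for single introns and 94 and 130 bp for the comparison introns. The difference in the share of introns over 1 kb was 3.004 points (SD 1.69) and 9.10 points (SD 1.47), -6.10 points (SD 2.46) apart in 11 of 11 pairs (exact permutation adjusted p = 0.00195). Phase 2 and lengths divisible by 3 did not pass this test (exact permutation adjusted p = 0.417 and 0.190).

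The unplaced scaffolds, which enter no comparison of the report, carried 703 genes with exactly 2 CDS segments among their 3240 genes (21.7%), a share above the 17.9% to 20.5% of the chromosome pairs. Their introns had phases 0, 1 and 2 in 41.0%, 33.9% and 25.2% and a median length of 153 bp, and 25.7% of their models carried no source name, against 36.2% to 45.1% over the pairs. These differences were not tested.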

How the results depend on the processing

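No paired analysis was possible because no value belongs to a tissue library and each tissue has only 1: this concerns the samples, while every test here compares gene classes within chromosome pairs. Of 126 alternatives other than leaving out a chromosome pair, 118 kept their result, and of 187 that left out a pair 184 did. For a tested difference, keeping it meant the same direction and side of the threshold. For a matched share it meant a move below the spread, and for a gene count a value within a factor of 1.5. For introns over 1 kb, 1 of the alternatives compared mean log10 intron length in place of the share. The phase 0 difference between models without and with a source name, which did not pass at -1.83 points, passed with CDS lengths divisible by 3 of 120 bp or more (-2.30), with 1 gene per structure and chromosome pair (-2.47) and with the phase column (-2.35). The phase 2 difference, which never passed, turned to 0.18 points against first introns, and to 0.0119 without chromosomes 11 and 12 and 0.0234 without 15 and 16. That of lengths divisible by 3 turned to -0.12 in models with a source name. The matched share on paired chromosomes was 60.9% with structures of 2 to 4 genes and 89.1% with a CDS of at least 600 bp. Identical introns made up 73.0% within 5 bp. Against genes with exactly 3 segments, the differences in median intron length (31.8 bp), introns over 1 kb (3.93 points), models without a source name (-4.16 points) and UTRs (-4.13 points) kept direction and passed, at over 1.5 times smaller size. The cause of these shifts was not tested, except that a tolerance can only raise a share.

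Leaving out each pair in turn gave phase differences of -13.1 to -12.4 (phase 0), 12.7 to 13.3 (phase 1) and -0.384 to 0.0234 points (phase 2), 93.2 to 98.6 bp for median intron length, 7.96 to 8.32 points over 1 kb, and 6.36 to 6.88 points before the midpoint. Between models without and with a source name it gave -2.43 to -1.06 points for phase 0 and -78.9 to -69.7 bp. Segment limits are predicted, which limits what the shortest introns and segments show.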
